A study of Mus musculus with 6 samples.

Results

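The 10 genes described here are a set that carries or reads fibroblast growth factor (FGF) signals in the early mouse embryo: the ligand *Fgf4*, the receptors *Fgfr1* and *Fgfr2*, the feedback genes *Spry4* and *Dusp6* of the ERK kinase cascade, the transcription factors *Gata6*, *Gata4*, *Sox17* and *Sox7* of the primitive endoderm, and the receptor *Pdgfra*, which marks the same lineage. They were chosen by name, and all 10 were found among the 55364 genes listed. Their level was compared between control KD and *Yy1* KD morulae, with 3 libraries in each group. Zygotes of BDF1 x BDF1 mice were injected with an siRNA, control or against *Yy1*, cultured in KSOM medium, and collected as morulae 64 h after insemination, 10 embryos to a library. Both groups were thus injected embryos. *Yy1* was targeted with siRNA and not by deletion, each library is a pool, and the labels give neither the sex of the embryos nor whether the pools of a group came from separate injections, so that p-values measure the spread between these pools. YY1 itself is a zinc finger transcription factor, and the study asked whether its loss affects the transcriptome at the morula stage.

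FGF4 is made by the cells that will become epiblast and binds FGFR1 and FGFR2 on neighbouring cells of the inner cell mass. The receptors pass the signal through GRB2, SOS, RAS, RAF and MEK to ERK, which sustains GATA6 and lowers NANOG, and cells that keep GATA6 go on to express PDGFRA, SOX17, GATA4 and SOX7 in sequence as primitive endoderm. ERK also raises its own inhibitors, among them the phosphatase DUSP6 and the Sprouty protein SPRY4. In the morula these lineages have not yet separated, and GATA6 and NANOG are still made in the same cells.

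The levels are TPM, read pairs per base of exon rescaled to a total of 1000000 in every library, so that levels of different genes can be compared per length. TPM multiplied by exon length returned whole read pairs for 88.97% to 90.9% of the values under 20 pairs in genes without exonic overlap, within 0.02 of a pair, which gave between 12870854 and 25066149 read pairs per control KD library and between 12109124 and 19150226 per *Yy1* KD library. The filter of 1 TPM or more in 3 or more of the 6 libraries left 17353 genes, which were tested with limma on log2(TPM + 1), and a gene was called at a Benjamini-Hochberg adjusted p under 0.05. The targeted gene *Yy1* had a mean of 95.3 ± 5.26 TPM in the control, and 9.07% of this, 8.65 ± 0.298 TPM, was left after its knockdown (SD, n = 3 each). Markers of cumulus, granulosa and sperm cells, which could travel with the embryos, were near 0, and those of oocytes were not. The summed level of 10 cumulus and granulosa cell genes was between 1.48 and 3.39 TPM in control KD and between 1.66 and 3.34 TPM in *Yy1* KD libraries, with the FSH receptor *Fshr* and the aromatase gene *Cyp19a1* among 5 genes listed at 0 throughout. The sum of 5 sperm genes was at most 0.542 and 2.26 TPM. The 7 oocyte genes summed to 47.9 to 65.1 TPM in control KD and 49.7 to 66.6 TPM in *Yy1* KD libraries, with 0 genes called.

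Of the 10 genes, 8 passed the filter and 0 of the 8 were called, where 6.11% of all genes tested were called (1.92% higher and 4.20% lower in *Yy1* KD morulae). At an unadjusted p under 0.05 there were 3, *Fgf4*, *Pdgfra* and *Dusp6*, beside 23.8% of all genes tested. The mean of *Fgf4* and of *Pdgfra* in *Yy1* KD morulae was 44.4% and 47.9% of the control, and that of *Dusp6* was 164% of it. The 3 values of 1 group lay wholly apart from those of the other for these 3 genes and for *Gata6*, which makes 4 of 8 beside 30.1% of all genes tested (12.9% higher and 17.2% lower). In direction the 8 genes were divided evenly, with 4 lower and 4 higher, and their median log2 fold change was 0.01 beside -0.02 over all genes tested.

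These calls depended on the test. limma-voom on the recovered read pairs, an alternative added after the data had been seen that weights each value by its depth, called 3 of the 8, *Fgf4* (adjusted p = 0.0136), *Pdgfra* (0.0259) and *Dusp6* (0.0330). It also called 12.5% of all genes, 2165 of 17312, with 4.88% higher and 7.63% lower in *Yy1* KD morulae. With a filter of a mean TPM of at least 5 in place of the main one, *Fgf4* was called by limma (adjusted p = 0.0432), as were 11.4% of the 10675 genes left (3.54% higher and 7.88% lower). All 8 genes had the same sign with limma-voom as in the main test.

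**Figure D1:**
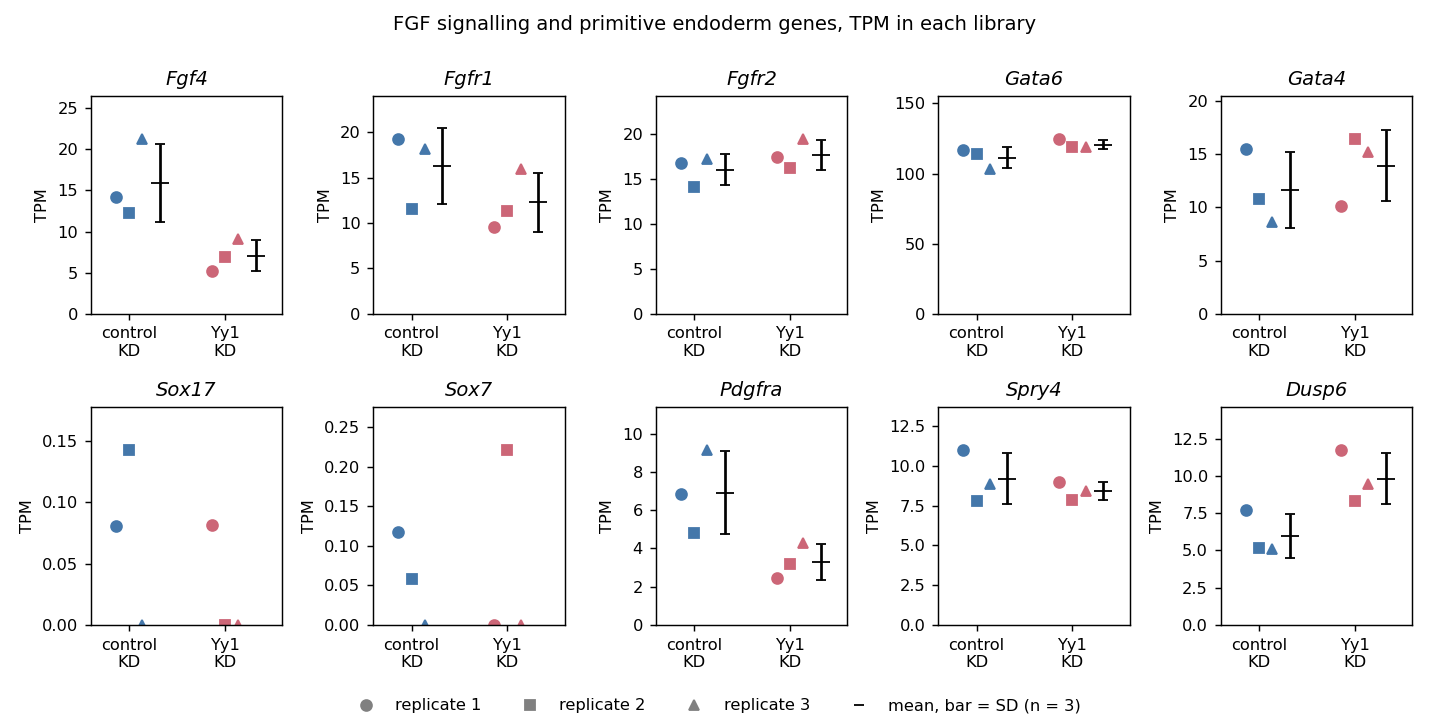
TPM (linear axis from 0) of each of the 10 genes in the 3 control KD and 3 Yy1 KD libraries; symbols give the replicate number, and the black line and bar the mean and SD of 3 libraries, left out for Sox17 and Sox7, which are listed at 0 in some libraries. The Yy1 KD points of Fgf4 and Pdgfra all lie below the control KD points, those of Dusp6 and Gata6 all lie above, and the points of Fgfr1, Fgfr2, Gata4 and Spry4 overlap.

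Since the loss of YY1 is what the groups differ by, promoters of the members were searched for its consensus. RefSeq promoters (GRCm38.p6, 250 bases before to 50 bases after the start) were found for 4 of the 10 genes, *Fgf4*, *Fgfr2*, *Pdgfra* and *Dusp6*. Those of *Fgf4* and *Fgfr2* lie inside the longer GENCODE genes. The consensus GCCATNTT, or AANATGGC on the other strand, was in 0 of these 4 and in 6.05% of 32851 promoters of the same length. Its core GCCAT, or ATGGC, was in 1 of 4, *Fgfr2*, and in 40.5% of all promoters. The core CGGAAG, or CTTCCG, of ETS factors, which ERK acts on, was in 1 of 4, *Dusp6*, and in 16.9% of all promoters. These are the windows that hold a match, read along the gene, with the matched letters in capitals, from chr7:130266890-130266919 on the minus strand and chr10:99263157-99263186 on the plus strand:
Fgfr2, YY1 core: ttgccttttcccATGGCagccacattaaag
Dusp6, ETS core: cggcaacagcccCTTCCGcagcgcgctcat
The match began 99 bases before the RefSeq start of *Fgfr2*, which lies inside the longer GENCODE gene, and 62 bases before that of *Dusp6*. Each is a match of letters alone, and the factors' binding was not analysed here.

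*Fgf4* (ENSMUSG00000050917.5), the ligand of the inner cell mass, is a plus-strand gene on chromosome 7, from 144847367 to 144865243 (GENCODE vM21, GRCm38, which mm10 also is) and shares no exonic bases with another gene. Its level was 14.2, 12.2 and 21.2 TPM in control KD replicates 1, 2 and 3 and 5.25, 6.89 and 9.03 TPM in *Yy1* KD replicates 1, 2 and 3. The groups did not overlap, but the highest *Yy1* KD library and the lowest control KD library were 3.21 TPM apart. The number of read pairs behind a value was at least 235 in control KD and between 121 and 143 in *Yy1* KD libraries. The means were 15.9 ± 4.72 and 7.06 ± 1.90 TPM (± SD, n = 3 per group), a log2 fold change of -1.06 with a standard error of 0.25 and a 95% interval of -1.66 to -0.46 (limma adjusted p = 0.0607). The two-sided exact permutation test gave p = 0.1, which is the smallest p that 3 libraries against 3 allow and holds for every gene below whose groups did not overlap. Over all alternatives the log2 fold change lay between -1.23 and -0.84.

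*Fgf4* sits in a cluster of FGF genes, and its neighbours were read out after their values had been seen. Of the 4 genes tested within 250 kb of it, 1 was called, downregulated, beside 6.11% of all genes tested. Distances were taken from the ends of the annotated gene bodies. So measured, 1 of 15 genes was called around *Fgfr1* and 3 of 22 around *Fgfr2*, with 0 around the other 5 members tested. The 3 around *Fgfr2* lie inside its long annotated body, at 131614188 or beyond, while its RefSeq promoter lies at 130266759 to 130267058. The gene called near *Fgf4* was *Ccnd1*, the gene of cyclin D1, on chromosome 7 from 144929931 to 144939925. It went from 9.04 ± 0.771 to 3.85 ± 0.954 TPM (± SD, n = 3 per group, log2 fold change -1.06, limma adjusted p = 0.0304). It shares 1100 exonic bases with *LTO1*, which lies on the other strand. *LTO1* was at almost the same level in both groups (log2 fold change 0.01, limma adjusted p = 0.984). *Fgf3* ends 2931 bases before the GENCODE start of *Fgf4*, but the RefSeq promoter of *Fgf4* searched above lies further on, at 144861136 to 144861435. *Fgf3* was at 12.6 ± 0.860 and 8.16 ± 1.90 TPM (SD, n = 3 each). It did not pass, although its groups did not overlap (log2 fold change -0.59, limma adjusted p = 0.101). The noncoding *Bc1* had a log2 fold change of -0.34 (limma adjusted p = 0.523), and *Fgf15*, in the same interval, was at most at 0.569 TPM and not tested.

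*Fgfr1* (ENSMUSG00000031565.18), the receptor that all cells of the inner cell mass carry, lies on chromosome 8 from 25513654 to 25575718. Control KD libraries had 19.2, 11.5 and 18.2 TPM of it, and *Yy1* KD libraries 9.55, 11.4 and 15.9 TPM. The values overlapped, since control KD replicate 2 was below *Yy1* KD replicate 3 and close to replicate 2. The log2 fold change was -0.38 with an interval of -0.97 to 0.21 (limma adjusted p = 0.414), so that neither a fall of almost 1 on the log2 scale nor a small rise lay outside the interval. *Fgfr1* shares 164 exonic bases with *Gm16159* on the other strand, between which pairs were divided.

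*Fgfr2* (ENSMUSG00000030849.18), the receptor that becomes restricted to primitive endoderm and trophectoderm, is annotated on the minus strand of chromosome 7 from 130162451 to 133123350, a body that runs across other genes and shares 314 exonic bases with *Ctbp2*. Its level was 16.8, 14.1 and 17.3 TPM in control KD libraries and 17.5, 16.2 and 19.5 TPM in *Yy1* KD libraries. The groups overlapped, and the difference was small against its error (log2 fold change 0.13, interval -0.17 to 0.44, limma adjusted p = 0.573).

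Both receptors were therefore present in control KD morulae at close to equal levels per length. The ratio of *Fgfr1* to *Fgfr2* in the same library, which does not depend on how the library is scaled, was 1.14, 0.815 and 1.05 in control KD and 0.546, 0.701 and 0.818 in *Yy1* KD morulae. *Fgfr2* was thus the higher of the pair in all 3 *Yy1* KD libraries and in 1 control KD library. On the log2 scale with 1 TPM added the ratio went from -0.01 ± 0.24 to -0.52 ± 0.27 (SD, n = 3 each), a difference of -0.51 that did not pass (two-sided exact permutation test, p = 0.2, or 0.3 after Benjamini-Hochberg adjustment over the 2 ratios computed). The longest run of bases shared by any annotated transcripts of *Fgfr1* and *Fgfr2* was 20, against reads of 150 bases.

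*Dusp6* (ENSMUSG00000019960.8), the phosphatase that inactivates ERK and is itself induced by it, is a plus-strand gene on chromosome 10, from 99263231 to 99267489. It was at 7.71, 5.16 and 5.09 TPM in control KD and at 11.7, 8.30 and 9.47 TPM in *Yy1* KD libraries, and the groups did not overlap. The lowest *Yy1* KD value was 0.591 TPM above the highest control KD value, which stood apart from the other control KD libraries. The means were 5.99 ± 1.49 and 9.83 ± 1.73 TPM (± SD, n = 3 per group), a log2 fold change of 0.64 with a standard error of 0.21 and an interval of 0.15 to 1.13 (limma adjusted p = 0.122), on between 119 and 284 read pairs.

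*Spry4* (ENSMUSG00000024427.7), the other feedback gene, lies on the minus strand of chromosome 18 from 38586247 to 38601415. Its values were 10.97, 7.78 and 8.85 TPM in control KD and 8.96, 7.88 and 8.45 TPM in *Yy1* KD libraries. The *Yy1* KD values lay inside the control KD range, with a log2 fold change of -0.10 and an interval of -0.48 to 0.28 (limma adjusted p = 0.746). Without control KD replicate 1, the highest library, the log2 fold change was 0.02, of the other sign. Of the feedback genes *Dusp6* thus had the higher and *Spry4* the lower mean in *Yy1* KD morulae. Neither was called, and the interval of *Spry4* held values of both signs, so that opposite directions were not shown.

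**Figure D2:**
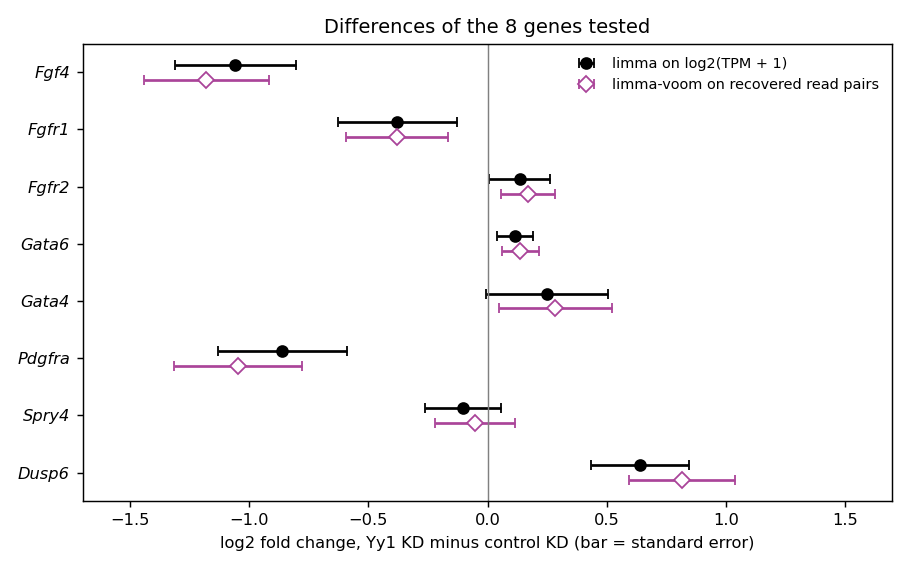
Log2 fold change (Yy1 KD minus control KD, x axis; bars are standard errors) of the 8 genes tested, from limma on log2(TPM + 1) (filled) and from limma-voom on recovered read pairs (open). Fgf4 and Pdgfra lie furthest below 0 and Dusp6 furthest above it in both tests.

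*Gata6* (ENSMUSG00000005836.10), the factor that starts the primitive endoderm program, was the most abundant of the 10 genes in every library. It is a plus-strand gene on chromosome 18, from 11052064 to 11085635 and was at 117, 114 and 103 TPM in control KD and at 125, 119 and 119 TPM in *Yy1* KD libraries, above at least 91.3% of all genes tested in each library. The groups did not overlap, but lay only 1.48 TPM apart, and the log2 fold change was 0.12 with an interval of -0.07 to 0.30 (limma adjusted p = 0.416). Over all alternatives it lay between 0.06 and 0.16. *Gata6* shares 93 exonic bases with the antisense gene *Gata6os*, which was at most at 7.80 TPM (log2 fold change -0.35, limma adjusted p = 0.305).

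*Nanog*, the epiblast factor that GATA6 opposes, was at 262, 304 and 400 TPM in control KD and at 334, 232 and 261 TPM in *Yy1* KD libraries (log2 fold change -0.22, limma adjusted p = 0.537). The ratio of *Gata6* to *Nanog* was 0.447, 0.375 and 0.258 in control KD and 0.373, 0.512 and 0.455 in *Yy1* KD libraries, so that *Nanog* was the higher gene in all 6 libraries. The log2 ratio went from -1.50 ± 0.40 to -1.17 ± 0.23 (SD, n = 3 each), and this difference of 0.33 was smaller than the SD of the control (two-sided exact permutation test, p = 0.3, adjusted p = 0.3). It was 0.11 without control KD replicate 3 and 0.51 without control KD replicate 1.

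*Gata4* (ENSMUSG00000021944.15), a later factor of the same lineage, lies on the minus strand of chromosome 14 from 63198922 to 63271692 and shares no exonic bases with another gene. It was detected in every library, at 15.5, 10.8 and 8.62 TPM in control KD and at 10.1, 16.4 and 15.2 TPM in *Yy1* KD morulae. The spread within each group was wide and the groups overlapped (log2 fold change 0.25, interval -0.36 to 0.86, limma adjusted p = 0.608). Each value rests on between 251 and 434 read pairs.

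*Sox17* and *Sox7*, the SOX factors that mark committed primitive endoderm, were not detectable beyond a few read pairs at this depth and did not pass the filter. *Sox17* (ENSMUSG00000025902.13, chromosome 1 from 4490931 to 4497354) had 2, 7 and 0 pairs in control KD and 3, 0 and 0 pairs in *Yy1* KD libraries. *Sox7* (ENSMUSG00000063060.6, chromosome 14 from 63943673 to 63950732) had 2, 2 and 0 pairs in control KD and 0, 4 and 0 pairs in *Yy1* KD libraries. A library listed at 0 allows a level of up to 3 pairs, which is at most 0.127 TPM for *Sox17* and 0.184 TPM for *Sox7*, counting error alone. No fold change is given for either gene. The longest run of bases shared by transcripts of *Sox7* and *Sox17* was 22, and of *Gata4* and *Gata6* 18.

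*Pdgfra* (ENSMUSG00000029231.15), the receptor of platelet-derived growth factor that follows GATA6 in the lineage, is a plus-strand gene on chromosome 5, from 75152292 to 75198215, with 652 exonic bases shared with other annotated genes. Its level was 6.85, 4.78 and 9.12 TPM in control KD and 2.44, 3.19 and 4.31 TPM in *Yy1* KD libraries. All *Yy1* KD values were lower than all control KD values, by 0.474 TPM at the nearest. The means were 6.92 ± 2.17 and 3.31 ± 0.943 TPM (± SD, n = 3 per group), a log2 fold change of -0.86 with a standard error of 0.27 and an interval of -1.51 to -0.22 (limma adjusted p = 0.115), on between 176 and 682 read pairs. Its ligand *Pdgfa* was at 43.8 ± 5.15 and 35.8 ± 1.53 TPM (± SD, n = 3 per group, log2 fold change -0.28, limma adjusted p = 0.168).

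*Fgf4*, *Pdgfra* and *Fgfr1* had their lowest value of each group in the same libraries. In each of them control KD replicate 2 was the lowest control library, and *Yy1* KD replicate 1 was the lowest and replicate 3 the highest *Yy1* KD library. Control KD replicate 2 and *Yy1* KD replicate 1 were also the libraries with the most recovered read pairs in their group, 25066149 and 19150226, and replicate 3 had the fewest in *Yy1* KD, 12109124. Among control KD libraries replicate 1 had the fewest, 12870854. *Fgfr1* was highest there, but *Fgf4* and *Pdgfra* were highest in control KD replicate 3. The part of depth in these values was not tested. *Dusp6* had its highest value in replicate 1 of both groups.

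In order of mean level, control KD morulae held *Gata6* first at 111 TPM, then *Fgfr1*, *Fgfr2* and *Fgf4* between 15.9 and 16.3 TPM, *Gata4* at 11.6, *Spry4* at 9.20, *Pdgfra* at 6.92 and *Dusp6* at 5.99 TPM, with *Sox17* and *Sox7* under 0.1 TPM. From *Fgfr1* down to *Dusp6*, each gene's 3 values overlapped those of the next in the order, so that these neighbours were not separated beyond their spread. In *Yy1* KD morulae *Fgfr2* came after *Gata6*, at 17.7 TPM, followed by *Gata4* at 13.9, *Fgfr1* at 12.3, *Dusp6* at 9.83, *Spry4* at 8.43, *Fgf4* at 7.06 and *Pdgfra* at 3.31 TPM. *Pdgfra* was set apart from *Fgf4* there, and *Dusp6* stood above *Fgf4* in all 3 *Yy1* KD libraries and below it in all 3 control KD libraries.

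The rest of the pathway was read from 6 lists of genes by role, of which 77 of 110 genes in the table were tested. Of these 9 were called, 1 upregulated and 8 downregulated, a share of 11.7% beside 6.11% of all genes tested. The median log2 fold change was -0.15. The filter of 5 TPM on the mean left fewer genes of these lists to test. That separate fit called 11 of them, and 11.4% of all genes left. It left 20 cascade genes, of which 5 were downregulated and 1 upregulated. Downregulated were also 2 of 11 feedback and target genes, 2 of 5 receptors and co-receptors and 1 of 7 heparan sulphate genes. Of 2 ligands and 8 primitive endoderm genes left, 0 were called. Fits that left out 1 library called between 0 and 5 of these genes: 5 without *Yy1* KD replicate 1, 2 without *Yy1* KD replicate 3, and 0 without *Yy1* KD replicate 2 or any control KD library. Calls over all 17353 genes fell in the same fits. They went from 333 upregulated and 728 downregulated to between 22 and 92 upregulated and between 53 and 326 downregulated. None of the 9 calls therefore held in all of these fits, and limma-voom called 17 of the 77 genes, where it called 12.5% of all genes.

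The kinases and adaptors between receptor and ERK made up the list with the most calls. Of 22 genes of the RAS-ERK cascade, all tested, 4 were downregulated, 1 was upregulated and 17 were not called. Over all genes tested, 4.20% were downregulated and 1.92% upregulated. Of the 22, 17 had a lower and 5 a higher mean. *Map2k2*, the gene of the ERK kinase MEK2, went from 136 ± 2.37 to 96.7 ± 5.56 TPM (log2 fold change -0.49, limma adjusted p = 0.0178). *Sos1*, the exchange factor that loads RAS, went from 155 ± 5.30 to 122 ± 4.35 TPM (-0.34, limma adjusted p = 0.0370). The upregulated gene was *Grb2*, the adaptor that brings SOS to the receptor, which went from 125 ± 3.32 to 155 ± 3.25 TPM (0.30, limma adjusted p = 0.0432; SD, n = 3 for each of these means).

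Among the 22 cascade genes, 13 had all *Yy1* KD values below all control KD values and 2 had them all above, where 17.2% and 12.9% of all genes tested did so. The median log2 fold change of the list was -0.19, and -0.12 with quantile normalization, which also left 1 downregulated and 1 upregulated call. The RAF kinase genes *Braf* (log2 fold change -0.56, limma adjusted p = 0.0523) and *Araf* (-0.72, 0.0945), the MEK1 gene *Map2k1* (-0.39, 0.0698) and the ERK1 gene *Mapk3* (-0.67, 0.101) did not pass and are named after their values were seen. Their groups did not overlap, with the lower values in *Yy1* KD morulae. limma-voom called *Braf* (adjusted p = 0.00540) and *Araf* (0.0232), but not *Map2k1* (0.0517) or *Mapk3* (0.0553). It called 8 of the 22 cascade genes, 7 downregulated and 1 upregulated, where it called 12.5% of all genes. At an unadjusted p under 0.05 by limma there were 12 of the 22, beside 23.8% of all genes tested.

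**Figure D3:**
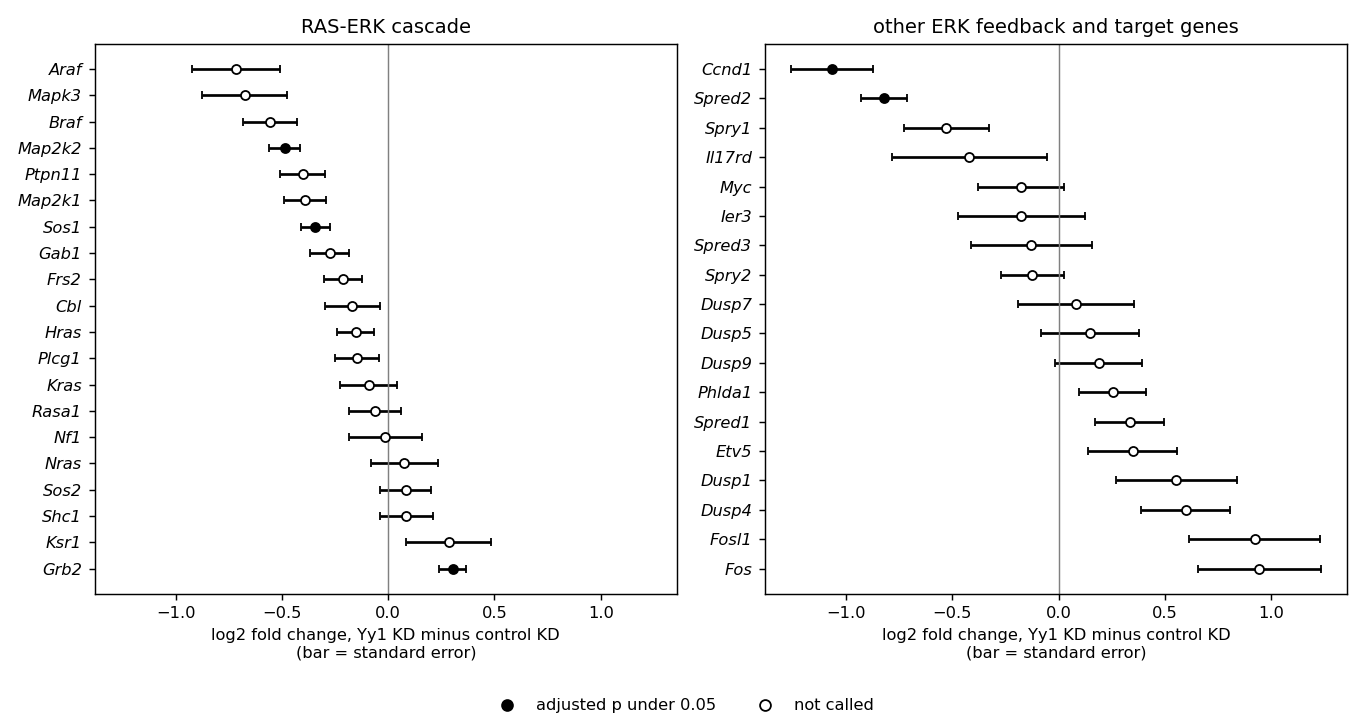
Log2 fold change (Yy1 KD minus control KD, x axis; bars are standard errors) of 20 of the 22 genes of the RAS-ERK cascade and of the 18 tested feedback and target genes of ERK other than Spry4 and Dusp6; filled points were called at an adjusted p under 0.05. Most cascade genes lie below 0, with Grb2 called above it, while the feedback and target genes lie on both sides.

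Feedback and target genes of ERK other than *Spry4* and *Dusp6* lay on both sides of 0. Of 21 such genes in the table, 18 were tested. Of these, 2 were downregulated, beside 4.20% of all genes tested, and 0 upregulated. A higher mean was seen for 10 and a lower for 8, with a median of 0.11 that turned to -0.03 without *Yy1* KD replicate 3. The called genes were *Ccnd1*, given above, and *Spred2*, an inhibitor of RAF activation, which went from 17.7 ± 0.872 to 9.54 ± 0.192 TPM (± SD, n = 3 per group, log2 fold change -0.82, limma adjusted p = 0.0130). The most abundant of the list were *Phlda1*, *Spry2* and *Etv5*, with log2 fold changes of 0.25, -0.12 and 0.35 and limma adjusted p-values of 0.382, 0.662 and 0.370. *Dusp4*, a relative of *Dusp6* named after its value was seen, went from 5.35 ± 0.528 to 8.78 ± 2.48 TPM (± SD, n = 3 per group, log2 fold change 0.60, limma adjusted p = 0.145), without overlap. *Fos* and *Fosl1*, early response genes, had higher values in all *Yy1* KD libraries. Their log2 fold changes were 0.94 and 0.92 (limma adjusted p = 0.110 and 0.131). The Sprouty gene *Spry1* had lower values in all *Yy1* KD libraries, with a log2 fold change of -0.53 (limma adjusted p = 0.171). *Fos*, *Fosl1* and *Spry1* were not called and were likewise named after their values were seen. Of the 18 genes, 3 had all *Yy1* KD values below all control KD values and 4 had them all above. Over all genes tested, 17.2% and 12.9% did so.

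Of 12 other receptors and co-receptors, 8 were tested and 1 was downregulated, beside 4.20% of all genes tested. This was *Klb*, the co-receptor of hormone-like FGFs, which went from 12.7 ± 1.06 to 6.87 ± 1.10 TPM (± SD, n = 3 per group, log2 fold change -0.80, limma adjusted p = 0.0356). *Fgfr3* was at 9.18, 7.29 and 9.75 TPM in control KD and 3.97, 3.04 and 5.46 TPM in *Yy1* KD libraries, below *Fgfr1* and *Fgfr2* in all 6 libraries, and its groups did not overlap. It just missed the threshold (log2 fold change -0.94, limma adjusted p = 0.0583, limma-voom adjusted p = 0.00648). *Fgfr4* had a log2 fold change of -0.89 (limma adjusted p = 0.134), and both genes are named after their values were seen. The syndecans *Sdc4* and *Sdc1*, cell surface carriers of heparan sulphate, were the most abundant of the list, with log2 fold changes of 0.33 and 0.37 (limma adjusted p = 0.197 and 0.290). Of the 8 genes limma-voom called 3, *Klb* and *Fgfr3* downregulated and *Sdc4* upregulated, where it called 12.5% of all genes.

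Of 13 genes that build heparan sulphate, the sugar chain that FGFs need to bind their receptors, 12 were tested. Of these, 1 was downregulated, beside 4.20% of all genes tested. *Ndst1*, which places the first sulphate groups, went from 22.2 ± 1.65 to 10.1 ± 2.64 TPM (± SD, n = 3 per group, log2 fold change -1.09, limma adjusted p = 0.0279). *Hs6st1* was the most abundant of these genes (log2 fold change -0.20, limma adjusted p = 0.433), and *Glce* was at -0.07 (limma adjusted p = 0.900). *Ugdh*, whose enzyme makes a sugar precursor of the chain, was higher in all *Yy1* KD libraries, at 3.63 ± 0.629 and 7.10 ± 0.866 TPM (SD, n = 3 for both), and just missed the threshold (log2 fold change 0.81, limma adjusted p = 0.0528, limma-voom adjusted p = 0.00852). *Extl3* also had no overlap, with the higher values in *Yy1* KD morulae (0.40, limma adjusted p = 0.213), and both genes are named after their values were seen.

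Of 21 other FGF ligands, 6 were tested and 0 were called by limma, with 2, *Fgf1* and *Fgf3*, at an unadjusted p under 0.05, and limma-voom called 1, *Fgf1* (adjusted p = 0.0406). The most abundant were *Fgf1* (8.52 ± 1.06 and 13.7 ± 3.43 TPM, log2 fold change 0.60, limma adjusted p = 0.123), *Fgf3*, given above, and *Fgf22* (4.18 ± 0.340 and 3.99 ± 1.03 TPM, -0.07, limma adjusted p = 0.871; SD, n = 3 each). Of all 22 FGF ligands in the table *Fgf4* was the highest in each of the 3 control KD libraries, and *Fgf1* in each of the 3 *Yy1* KD libraries. The lead over *Fgf3* was small in control KD replicates 1 (14.2 against 13.5 TPM) and 2 (12.2 against 11.8 TPM). Neither *Fgf4* nor *Fgf1* was called in the main test, and the change of order was not tested.

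**Figure D4:**
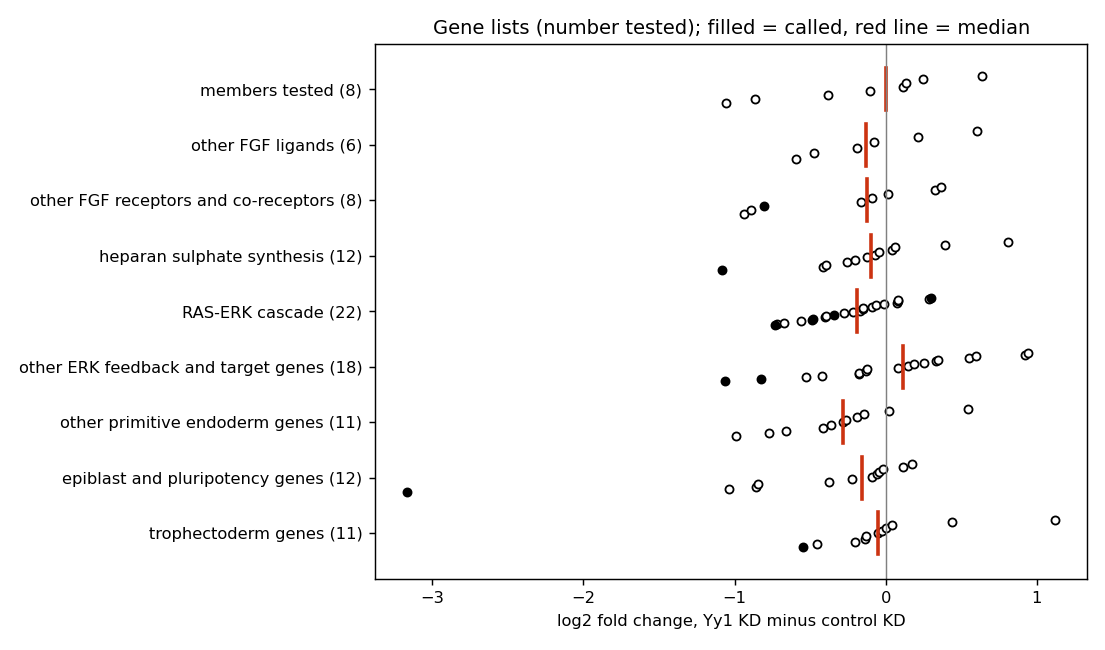
Log2 fold change (Yy1 KD minus control KD, x axis) of the tested genes of the 10-gene set and of 8 other lists, 1 point per gene; filled points were called and the red line is the list's median. Medians lie between -0.28 for other primitive endoderm genes and 0.11 for feedback and target genes, beside -0.02 over all genes tested.

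Other primitive endoderm genes fell into those already present in the morula and those near 0. Of 21 genes, 11 were tested and 0 were called (limma; 2 were at an unadjusted p under 0.05, and limma-voom called 1, *Col4a1*). The endocytic adaptor *Dab2* (87.1 ± 8.27 and 76.6 ± 11.1 TPM, log2 fold change -0.19, limma adjusted p = 0.429) and the endocytic receptor *Lrp2* (53.9 ± 28.0 and 33.6 ± 19.7 TPM, -0.66, limma adjusted p = 0.511; SD, n = 3 each) were the most abundant, followed by *Pdgfa*. *Lrp2* differed more among the pools of 1 group than between the groups, with 23.6 to 78.8 TPM in control KD libraries. It was lowest in control KD replicate 2 and highest in replicate 3. The same order held for *Cubn*, *Amn*, *Lamb1*, *Lamc1*, *Col4a1* and *Col4a2*, looked at after their values were seen. *Dab2*, *Pdgfa* and *Apoa1* were highest in control KD replicate 3 but lowest in replicate 1, and *Srgn* was highest in replicate 1. The endoderm factors *Foxa2* and *Hnf4a*, named after their values were seen, were at most at 0.0767 and 1.61 TPM, as *Sox17* and *Sox7* were near 0. The basement membrane collagen *Col4a1*, named after its value was seen, was at 34.3 ± 14.4 and 16.0 ± 3.09 TPM (SD, n = 3 each) without overlap (log2 fold change -0.99, limma adjusted p = 0.107). The median over the 11 genes was -0.28, with 9 lower and 2 higher, and moved to -0.14 without control KD replicate 3, to -0.44 without control KD replicate 2 and to -0.45 without *Yy1* KD replicate 3.

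The other lineages of the blastocyst give the setting of these levels. Of 12 epiblast and pluripotency genes tested, 1 was downregulated, beside 4.20% of all genes tested. This was *Zfp42*, with a log2 fold change of -3.17 (limma adjusted p = 1.18e-04). Of the 12, 10 had a lower and 2 a higher mean, with a median of -0.16. All *Yy1* KD values lay below all control KD values in 6, beside 17.2% of all genes tested. *Pou5f1*, *Tfcp2l1* and *Klf5*, the most abundant, had log2 fold changes of -0.06, -0.02 and -0.04 (limma adjusted p = 0.671, 0.943 and 0.809). *Sox2*, which with OCT4 activates *Fgf4* in pluripotent cells, was at 8.73, 9.93 and 14.3 TPM in control KD and at 7.03, 5.75 and 4.02 TPM in *Yy1* KD libraries and did not overlap (log2 fold change -0.86, limma adjusted p = 0.0942). *Tdgf1*, a co-receptor of Nodal (log2 fold change -0.84, limma adjusted p = 0.108, limma-voom adjusted p = 0.0240), and the pluripotency factor *Prdm14* (-1.04, limma adjusted p = 0.14) did not overlap either, and these 3 genes are named after their values were seen. Of 11 trophectoderm genes tested, 1 was downregulated, beside 4.20% of all genes tested. This was *Tfap2c* (183 ± 7.24 to 126 ± 9.14 TPM, SD, n = 3 per group, log2 fold change -0.54, limma adjusted p = 0.0174). In the fits without 1 library, *Zfp42* was called in 6 of 6 and *Tfap2c* in 1 of 6. *Fabp3*, *Hand1* and *Krt8* were the most abundant (log2 fold changes -0.02, -0.20 and -0.45, limma adjusted p = 0.966, 0.584 and 0.231). In the other direction *Id2*, an inhibitor of bHLH factors named after its value was seen, was at 1.73 ± 0.470 and 5.16 ± 2.36 TPM (SD, n = 3 for both) without overlap, and did not pass (log2 fold change 1.12, limma adjusted p = 0.0893, limma-voom adjusted p = 0.0301). In these pools of whole embryos, fewer cells of a type and less RNA per cell cannot be told apart.

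**Figure D5:**
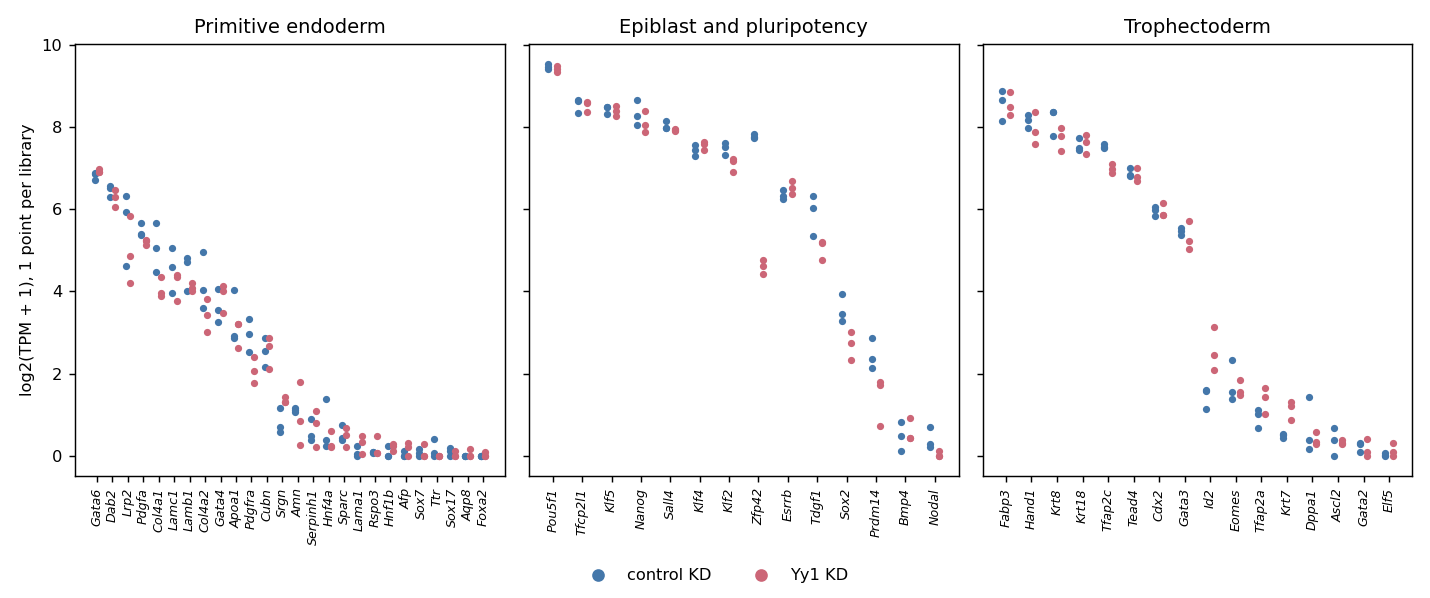
Level of primitive endoderm, epiblast and trophectoderm genes as log2(TPM + 1) on the y axis, 1 point per library, control KD in blue and Yy1 KD in red, ordered by mean level. Gata6 is the highest of the primitive endoderm genes and Sox17, Sox7 and Foxa2 are near 0 in both groups, while Zfp42 is the gene whose groups lie furthest apart.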

How the data were processed

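The 6 libraries were made with the SMART-Seq Stranded kit. The authors trimmed reads with Trim Galore (0.6.7), aligned them to mm10 with HISAT2 (2.2.1), removed reads on ribosomal RNA with bedtools, counted pairs per GENCODE vM25 gene with featureCounts (2.0.1; strand ignored, pairs on several genes divided among them) and deposited TPM. TPM keeps no depth, so limma (3.58.1, R 4.3.3) with a variance trend was fitted to log2(TPM + 1) over all genes tested, in place of the count test of the authors. Fold changes on this scale understate changes of low genes. Exact permutation tests were two-sided. Exon lengths and coordinates came from GENCODE vM21, which matched 55104 of 55364 identifiers. The test was checked on simulated libraries of 17353 genes, where 41 of 106 genes changed by 1 and 78 of 94 changed by 2 on the log2 scale were called. Of 17153 unchanged genes 6 were called. Far fewer genes were changed than the 1061 called in the data, so these shares need not hold for the real test.

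The members, lists and tests were chosen with earlier results of these data known. Named were all members, *Yy1*, *Nanog*, called genes of the lists and the 3 most abundant genes of each pathway and lineage list; others are marked. Of the called genes, 2 of the RAS-ERK list are counted but not reported here one by one. Alternatives were quantile normalization, a pseudocount of 0.1, scaling by median ratios, no filter or a minimum mean of 5 TPM, a fit without the variance trend, a replicate block, leaving out each library and, added later, limma-voom. Repetitive elements, binding sites and chromatin contacts were not analysed here. Permutation tests used scipy 1.17.1 and plots matplotlib 3.10.9, under Python 3.11.15.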

Additional observations from a re-analysis of the deposited data

How the results depend on the processing

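Over 14 alternatives, 7 of the 8 members tested kept their sign; *Spry4* turned from -0.10 to 0.018 without control KD replicate 1 (leave-one-out range -0.21 to 0.018). The number of members called, 0, went to 1 with a mean TPM of at least 5 (*Fgf4*, log2 fold change -1.06) and to 3 with limma-voom (*Fgf4* -1.18, *Pdgfra* -1.05, *Dusp6* 0.82), and was 0 in all fits without 1 library. Calls over all genes, 333 upregulated and 728 downregulated, went to 77 and 270 without a filter, 132 and 382 without a variance trend, 844 and 1321 with limma-voom, and between 22 and 92 and between 53 and 326 without 1 library. The 9 calls in the pathway lists went to 2 without a filter, 2 without a variance trend, 17 with limma-voom and between 0 and 5 without 1 library. With the replicate block, 69 genes were upregulated, 218 downregulated and 0 called in the pathway lists. The block kept 260 of the 1061 calls of the main fit, among them *Zfp42* and *Tfap2c*, and called 0 members. Same-numbered libraries did not deviate together (r between -0.00388 and 0.0747 across genes), and 3 of 6 libraries correlated best with their own number. The numbers were therefore not taken to pair the libraries. The share of downregulated calls was 68.6% as deposited, 62.1% with median-ratio scaling and 58.5% with quantile normalization. The causes of these changes were not tested. Levels under about 1 TPM, such as *Sox17* and *Sox7*, are limited by depth.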
